A study of Homo sapiens with 8 samples.

Results

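The genes described here encode desmosomes, the cornified envelope and other proteins of squamous differentiation, 36 genes chosen by symbol from a table of 18164 genes, and all 36 were in it. They were read as 3 classes: 11 desmosome genes, 14 cornified envelope genes and 11 other genes of squamous differentiation. RNA was sequenced from 8 tumors grown from HCC1937, a human cell line of a triple-negative breast carcinoma (one without estrogen receptor, progesterone receptor or ERBB2 amplification), after 1000000 cells were injected into the inguinal mammary fat pad of NCG mice. These mice, of the strain NOD/ShiLtJGpt-Prkdcem26Cd52Il2rgem26Cd22/Gpt, lack T, B and NK cells but keep their own myeloid cells, vessels, fibroblasts, muscle and skin. Treatment began at a tumor volume of 100 to 150 mm3: 4 tumors received 500 mg/kg/day of NMN (nicotinamide mononucleotide, from which cells make NAD+), and 4 received vehicle. The groups differ by label only in that treatment; the sources used here do not give age, sex, route or length of treatment. Whether every tumor had a mouse of its own is not in the labels, so p-values reflect only how these 8 samples of 1 cell line vary, which may be technical.

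Desmosomes are cell-cell junctions in which the cadherins of the desmoglein and desmocollin families hold neighboring cells together, while plakoglobin, plakophilins and desmoplakin tie them to keratin filaments. The cornified envelope is a later structure, built under the membrane of a terminally differentiating keratinocyte when transglutaminases crosslink involucrin, small proline-rich proteins and other precursors into an insoluble shell. Breast epithelium makes desmosomes but ordinarily no cornified envelope, whereas basal-like breast carcinomas can show squamous features. The comparison with NMN addresses how the treatment altered the tumor transcriptome, and the comparison of the classes asks whether junction and envelope genes moved alike.

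Values are transcripts per 1000000 transcripts (TPM), a unit per transcript length, so that levels can be compared between genes. TPM sum to the same total in every library, and the depth behind a value is unknown. All 36 genes had at least 1 TPM in at least 4 of the 8 tumors and were tested among 13358 genes. EPCAM, a defining epithelial gene, stood between 91 and 182 TPM, the estrogen receptor gene ESR1 between 3.37 and 6.00 TPM, and the progesterone receptor gene PGR at no more than 0.02 TPM. The sources used here do not say how mouse reads were treated, and what part of any value came from mouse skin or other host cells was not tested.

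None of the 36 genes differed between NMN and Vehicle tumors by the test, and the groups overlapped in every one of them. With limma on log2(TPM + 1), 0 of 36 passed at an adjusted p under 0.05, as did 0 of all tested genes (0%; 53 without NMN 4, none of them among the 36), and the smallest adjusted p among the 36 was 0.77, for CSTB. At an unadjusted p under 0.05 there were also 0 of 36, beside 927 genes or 6.94% of all tested genes. The 4 NMN values lay clear of the 4 Vehicle values in 0 of 36 genes, beside 3.05% of all tested genes (2.08% higher and 0.966% lower). Of the 36, 16 had the higher and 20 the lower mean in NMN tumors, beside 51% higher among all tested genes. Single tumors lay further apart than the group means: highest and lowest tumor differed at least 2-fold in 11 of 14 envelope genes, in 8 of 11 squamous differentiation genes and in 3 of 11 desmosome genes. That ratio was reached by 26.6% of all tested genes, and by 13.1% of the 9032 with a mean of at least 10 TPM. Without Vehicle 4 the desmosome count was 1 of 11, while the envelope count was then 10 of 14 and the squamous count 7 of 11.

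**Figure D1:**
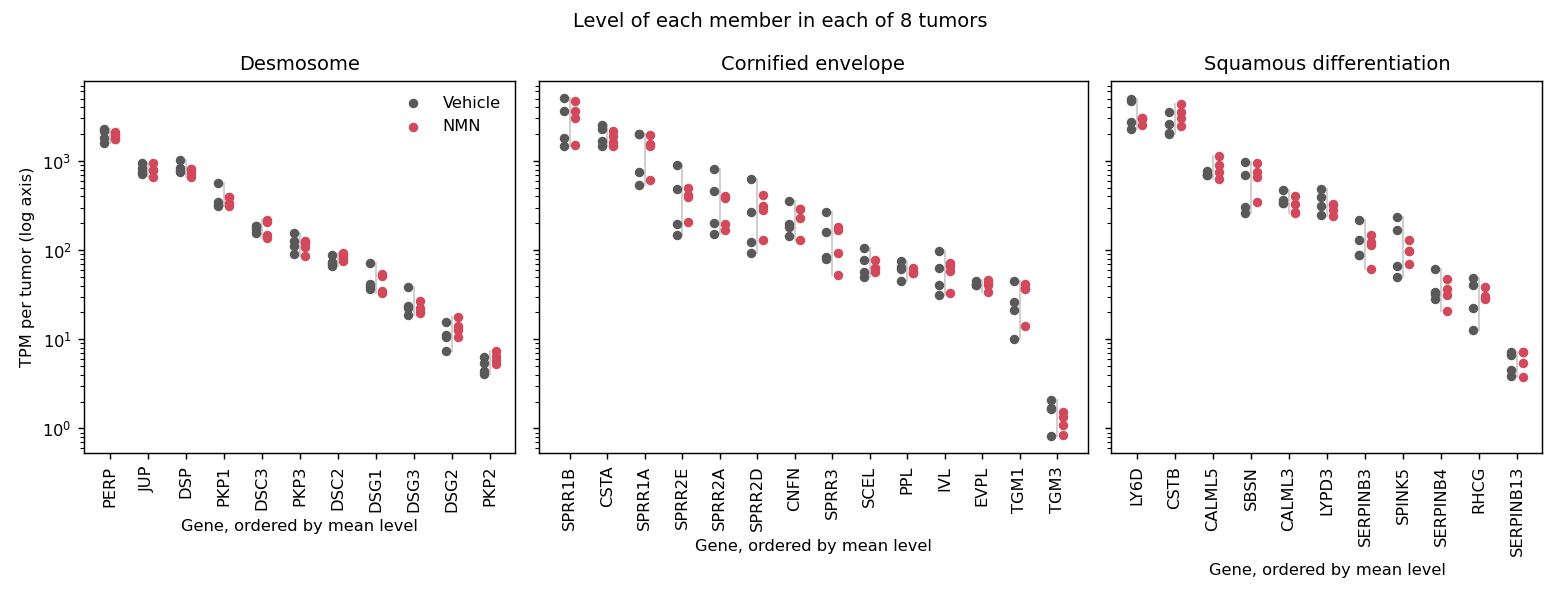
TPM of each gene on a log axis in the 4 Vehicle tumors (grey) and the 4 NMN tumors (red), by class and in order of mean level, with a grey line from the lowest to the highest tumor. The groups overlap in all 36 genes, and the lines are longest in the envelope class, up to the 6.61-fold range of SPRR2D.

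The most abundant desmosome genes were PERP, JUP and DSP. PERP, a membrane protein needed for desmosome assembly in stratified epithelia, stood at 1821, 2267, 1568 and 2174 TPM in Vehicle 1 to 4 and at 1962, 2091, 1782 and 1745 TPM in NMN 1 to 4. All 4 NMN values lay inside the Vehicle range, and the log2 fold change was -0.04 ± 0.13 (SE), with a 95% interval from -0.32 to 0.25. JUP, which encodes plakoglobin, the plaque protein that binds the cadherin tails, was at 709, 750.02, 828 and 947 TPM in the Vehicle tumors and at 951, 658, 798 and 794 TPM in the NMN tumors. The highest and the lowest tumor were both of the NMN group, and the log2 fold change was -0.02 ± 0.13.

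DSP, which encodes desmoplakin, the link from the plaque to keratin filaments, was at 778, 753, 827 and 1012 TPM in Vehicle 1 to 4 and at 811, 723, 651 and 810.2 TPM in NMN 1 to 4. Vehicle 4 was the highest tumor and NMN 3 the lowest, with a log2 fold change of -0.17 ± 0.12 (limma adjusted p = 0.888). The ratio of DSP to JUP ran from 0.816 to 1.10 over the 8 tumors, a 1.35-fold range. DSP alone had a 1.55-fold and JUP a 1.44-fold range.

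The 5 desmosomal cadherins had lower levels than these 3 genes. DSC3, the desmocollin of basal layers, was at 174 ± 14.1 TPM (SD, n = 4) in Vehicle and 177 ± 40.5 TPM in NMN tumors, and DSC2, the desmocollin of simple as well as stratified epithelia, at 74.5 ± 9.39 and 85 ± 7.18 TPM. DSC2 was at 66.8, 69.4, 73.9 and 87.85 TPM in Vehicle 1 to 4 and at 93.1, 76.4, 87.85 and 82.5 TPM in NMN 1 to 4. Its 3 lowest tumors were Vehicle 1, 2 and 3, but Vehicle 4 stood level with NMN 3, and the log2 fold change of 0.19 ± 0.11 did not pass (limma adjusted p = 0.836, exact permutation p = 0.143, two-sided). The smallest p that 4 tumors against 4 allow in that permutation test is 0.0286.

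Of the desmogleins, DSG1, the form of upper epidermal layers and the target of pemphigus foliaceus antibodies, had means of 47.3 TPM in Vehicle and 43 TPM in NMN tumors. DSG3, the form of lower layers and the target in pemphigus vulgaris, had means of 25.7 and 22.5 TPM, and DSG2, the form of simple epithelia and heart, means of 11.2 and 13.8 TPM. These 3 were the desmosome genes with the widest ranges, from 2.07-fold for DSG3 to 2.41-fold for DSG2. DSG1 and DSG3 were highest in Vehicle 4, at 70.8 and 38.6 TPM, where DSG2 was at 10.6 TPM. DSG1 exceeded DSG3 in every tumor, by a factor between 1.56 and 2.44.

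Plakophilins bind the cadherin tails and help to cluster them. PKP1, the main form of stratified epithelia, was at 386 ± 120.1 TPM in Vehicle and 359 ± 40.1 TPM in NMN tumors, PKP3, found in most epithelia, at 120.5 ± 26.3 and 109 ± 17.6 TPM, and PKP2, the form of heart and simple epithelia, at 5.04 ± 1.00 and 6.25 ± 0.888 TPM. PKP2 was at 4.03, 4.46, 5.40 and 6.28 TPM in Vehicle 1 to 4 and at 5.91, 6.43, 7.38 and 5.28 TPM in NMN 1 to 4. NMN 2 and NMN 3 lay above the Vehicle range and NMN 1 and NMN 4 inside it, and the log2 fold change of 0.27 ± 0.17 did not pass (limma adjusted p = 0.86, exact permutation p = 0.143). The median log2 fold change of the 11 desmosome genes was -0.04, beside 0.00 over all tested genes, with 4 higher and 7 lower, and it was 0.06 without Vehicle 4.

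Among envelope genes the small proline-rich genes, which encode envelope precursors that serve as crossbridges, had ranges over the 8 tumors between 3.44-fold and 6.61-fold, and SPRR1B was the most abundant of the class. SPRR1B stood at 1477, 3595, 1793 and 5079 TPM in Vehicle 1 to 4 and at 4671, 3579, 3037 and 1499.7 TPM in NMN 1 to 4. SPRR1A was at 535, 1989, 758 and 2019 TPM in the Vehicle tumors and at 1565, 1973, 1454 and 604 TPM in the NMN tumors. In both genes Vehicle 1, Vehicle 3 and NMN 4 were the 3 lowest tumors, so that each group held high and low tumors. The log2 fold changes were 0.16 ± 0.40 for SPRR1B and 0.18 ± 0.45 for SPRR1A, with intervals from -0.72 to 1.05 and from -0.81 to 1.18, whose upper ends lie above a 2-fold rise.

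SPRR2D spanned the widest range of the 36 genes, at 93.6, 266, 124 and 619 TPM in Vehicle 1 to 4 and at 411, 316, 283 and 131 TPM in NMN 1 to 4. SPRR2E was at 148, 482, 194 and 909.5 TPM in the Vehicle tumors and at 415, 496, 398 and 207 TPM in the NMN tumors. For SPRR2A the Vehicle tumors held 203, 457, 149.65 and 804 TPM and the NMN tumors 405, 386, 196 and 169 TPM. Vehicle 4 was the highest tumor in all 3, and the range was 5.37-fold for SPRR2A, 6.14-fold for SPRR2E and 6.61-fold for SPRR2D. These paralogs share sequence: in their GENCODE 29 transcripts 32.7% of the 50-base stretches of SPRR2A, 23.4% of those of SPRR2E and 19.3% of those of SPRR2D also occur in another SPRR2 gene. The split of reads among them is therefore uncertain. The ratio of SPRR2D to SPRR2A ran from 0.462 in Vehicle 1 to 1.45 in NMN 3.

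SPRR3, a family member of internal stratified epithelia, was at 83.1, 268, 79.8 and 159 TPM in Vehicle 1 to 4 and at 179, 169, 92.9 and 52.1 TPM in NMN 1 to 4. Involucrin (IVL), an early envelope scaffold, was at 31.1, 63.7, 40.7 and 98.5 TPM in the Vehicle tumors and at 71.8, 57.7, 66.5 and 33.2 TPM in the NMN tumors. Both had Vehicle 1, Vehicle 3 and NMN 4 as their 3 lowest tumors, with log2 fold changes of -0.23 ± 0.43 and 0.05 ± 0.33.

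The transglutaminases differed by level. TGM1, the membrane-bound crosslinking enzyme of the epidermis, was at 10.2, 26.3, 21.1 and 44.5 TPM in Vehicle 1 to 4 and at 36.2, 41.5, 37.7 and 14.1 TPM in NMN 1 to 4. It had the largest log2 fold change of the class, 0.40 ± 0.41, which did not pass (limma adjusted p = 0.944), and it was 0.75 without NMN 4 and 0.04 without Vehicle 1. TGM3, a transglutaminase of hair follicle and epidermis, was near the lower limit of the test, at 1.66, 0.82, 1.69 and 2.09 TPM in the Vehicle tumors and at 1.51, 1.35, 1.09 and 0.85 TPM in the NMN tumors.

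The remaining precursors varied less. Cornifelin (CNFN) was at 219.7 ± 91.3 TPM in Vehicle and 233 ± 73.8 TPM in NMN tumors, with a 2.72-fold range, and sciellin (SCEL) at 72 ± 25 and 64.9 ± 8.44 TPM, with a 2.11-fold range. CSTA, which encodes cystatin A, a cysteine protease inhibitor that is crosslinked into the envelope, was at 1677, 2497, 1470.1 and 2279.7 TPM in Vehicle 1 to 4 and at 1902, 2161, 1482 and 1623 TPM in NMN 1 to 4, a 1.70-fold range. The plakins periplakin (PPL) and envoplakin (EVPL), which join the desmosomal plaque to the envelope, had ranges of 1.66-fold and 1.39-fold. Their means were 61.4 and 41.9 TPM in Vehicle and 58.2 and 40.8 TPM in NMN tumors. The median log2 fold change of the 14 envelope genes was 0.00, with 7 higher and 7 lower, and it ran from -0.19 without Vehicle 1 to 0.25 without Vehicle 4. The desmosome median minus the envelope median was -0.04. Leaving out NMN 4 gave -0.28 and leaving out Vehicle 1 gave 0.11, so no order of the classes held across tumors.

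**Figure D2:**
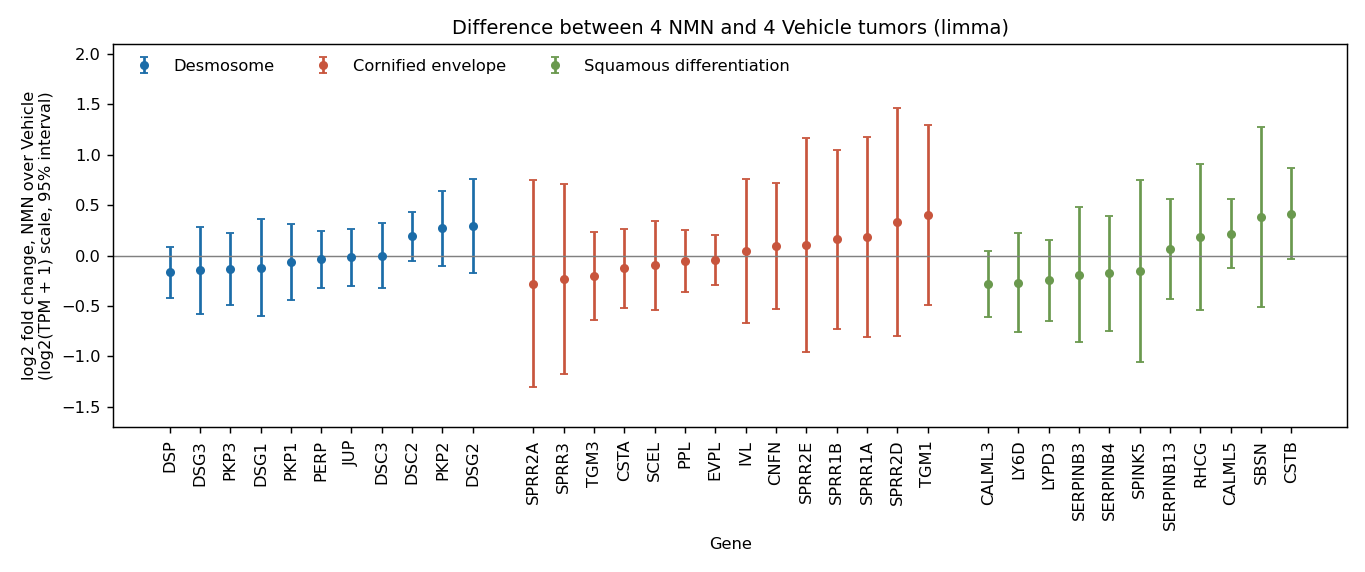
Log2 fold change of each gene, NMN relative to Vehicle, on the log2(TPM + 1) scale, from limma with its 95% interval, in order within each class. Every interval includes 0, and the widest is that of SPRR2D, from -0.80 to 1.46.

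The classes differed in how far tumors of 1 group lay apart. The pooled SD of log2(TPM + 1) between tumors of a group had a median of 0.69 over the envelope genes, 0.40 over the squamous differentiation genes and 0.25 over the desmosome genes, beside 0.21 over all tested genes. SPRR2D, at 1.00, stood at percentile 99.4 of all tested genes, and DSC2, at 0.15, at percentile 22.3. Within the 4 Vehicle tumors a 2-fold range was reached by 11 of 14 envelope genes and 2 of 11 desmosome genes, beside 17.7% of all tested genes. Within the 4 NMN tumors the numbers were 9 of 14 and 0 of 11, beside 10.6%. Summed over genes, the envelope class made up 0.454% of all TPM in Vehicle 1, 1.00% in Vehicle 2, 0.499% in Vehicle 3 and 1.26% in Vehicle 4. In NMN 1 to 4 its share was 1.01%, 0.963%, 0.75% and 0.462%. The desmosome class made up between 0.400% and 0.525% in the same tumors.

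**Figure D3:**
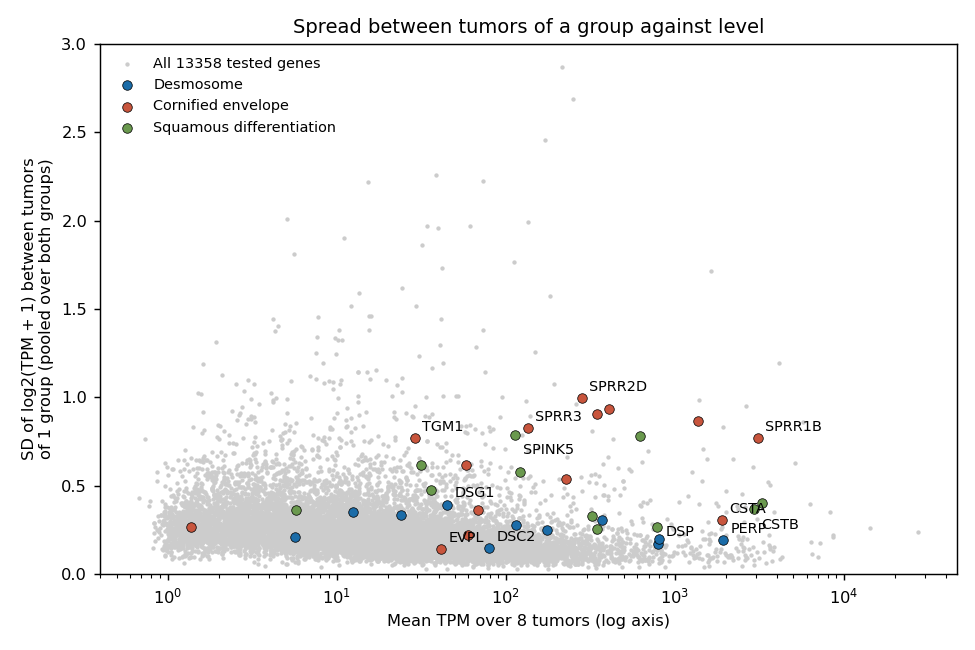
SD of log2(TPM + 1) between tumors of a group, pooled over both groups, against mean TPM on a log axis for all 13358 tested genes (grey) and the 3 classes (colored). Most envelope genes lie above the bulk of genes of like level, with SPRR2D at 1.00, while the desmosome genes lie between 0.15 and 0.39.

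The order of the tumors was shared by many of the variable genes. Vehicle 1, Vehicle 3 and NMN 4 were the 3 lowest tumors in 8 of 14 envelope genes, in 5 of 11 squamous differentiation genes and in 0 of 11 desmosome genes, beside 1.72% of all tested genes. With so small a share over all tested genes, 0 of 11 does not set the desmosome genes apart. This trio was picked after the values were seen, so the counts are a description. The 8 envelope genes were SPRR1A, SPRR1B, SPRR2D, SPRR2E, SPRR3, IVL, SCEL and TGM1. Vehicle 4 was the highest tumor in 11 of 14 envelope genes and 5 of 11 desmosome genes, beside 16.9% of all tested genes, and Vehicle 2 in 2 of 14 and 1 of 11, beside 3.5%. The median deviation of the envelope genes from their 8-tumor mean of log2(TPM + 1) was -0.55, 0.22, -0.37 and 0.73 in Vehicle 1 to 4 and 0.32, 0.37, 0.06 and -0.74 in NMN 1 to 4. For the desmosome genes it ran from -0.19 in NMN 2 to 0.25 in Vehicle 4.

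Other values of the same tumors are given here, whether or not they followed this order, and their part in it was not tested. All tested genes had median deviations of 0.04, 0.08 and 0.13 in Vehicle 1, Vehicle 3 and NMN 4, the 3 highest of the 8 tumors. Once libraries were scaled by the median of ratios, the trio was lowest in 10 of 14 envelope, 8 of 11 squamous differentiation and 2 of 11 desmosome genes, beside 4.45% of all tested genes under that scaling. The summed level of 18 skeletal muscle markers was 970, 773, 2839 and 491 TPM in Vehicle 1 to 4 and 98.9, 99.3, 100.3 and 732 TPM in NMN 1 to 4, so Vehicle 1 and Vehicle 3 held the most. By group, 16 of the 17 tested muscle genes were lower on average with NMN. All 16 were at an unadjusted p under 0.05 by limma, beside 2.15% of all tested genes, and MB was higher. The median log2 fold change of the 17 was -3.00. None passed after adjustment (limma, smallest adjusted p = 0.226), and the groups lay apart without overlap in 1 of the 17. Of 11 fibroblast markers 5 were tested, and all 5 had the lower mean in NMN tumors. The collagen genes COL1A1, COL1A2 and COL3A1, at 69 to 169, 30.7 to 76.9 and 14.2 to 36.5 TPM, had log2 fold changes of -0.60, -0.61 and -0.61 at unadjusted p of 0.0131, 0.0113 and 0.0282 by limma, which did not pass after adjustment. The fibroblast genes DCN and LUM were at no more than 0.05 TPM in any tumor, the leukocyte gene PTPRC at no more than 0.39 TPM and the endothelial gene CDH5 at no more than 0.18 TPM. Other members of these lists stood higher. CD68 of the myeloid list ran from 21.4 to 63.7 TPM, with the trio as its 3 lowest tumors, and CD14 from 12.9 to 27.4 TPM. KDR, with the smallest p of the endothelial list, had means of 1.83 TPM in Vehicle and 3.94 TPM in NMN tumors. Its groups did not overlap (limma adjusted p = 0.312), beside 2.08% of all tested genes that lay higher without overlap. The summed fibroblast list ran from 193 to 292 TPM in Vehicle and from 121 to 237 TPM in NMN tumors, the endothelial list from 8.29 to 12.9 and from 11.35 to 13.3 TPM, the myeloid list from 56.7 to 79 and from 53.9 to 92.9 TPM, and the adipocyte list from 35.5 to 134 and from 42.9 to 255 TPM. In whole-tumor RNA, fewer cells of a type and less RNA per cell cannot be told apart.

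**Figure D4:**
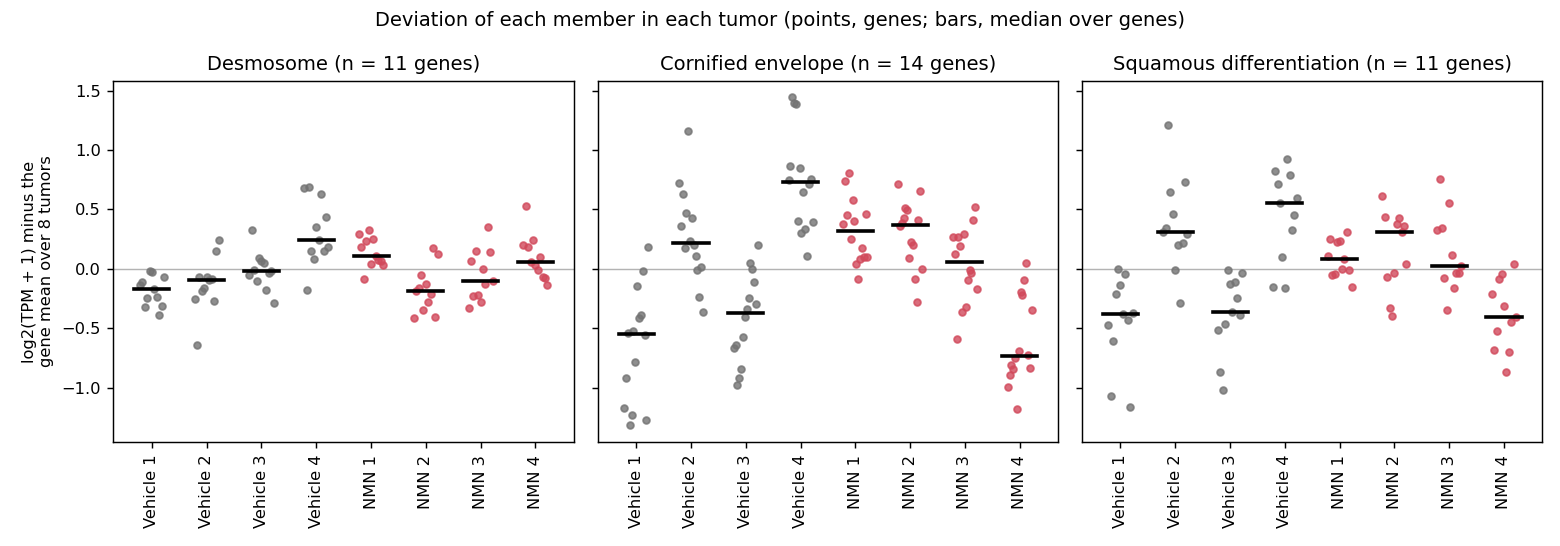
Deviation of log2(TPM + 1) of each gene (points) from its mean over the 8 tumors, by tumor (Vehicle grey, NMN red) and class, with the median over genes as a black bar. The envelope bars run from -0.74 in NMN 4 to 0.73 in Vehicle 4, and those of the desmosome genes from -0.19 to 0.25.

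The genes with this shared order lay at several loci. IVL, SPRR3, SPRR1A, SPRR1B, SPRR2D and SPRR2E lie within the epidermal differentiation complex, on chromosome 1 between 152908545 and 153106184 (GRCh38, GENCODE 29). SPRR2A lies in the same interval, but its 3 lowest tumors were Vehicle 3, NMN 3 and NMN 4. TGM1 on chromosome 14 (24249114 to 24264432, minus strand) and SCEL on chromosome 13 (77535674 to 77645263, plus strand) had the same 3 lowest tumors. The desmosomal cadherins DSC3, DSC2, DSG1, DSG3 and DSG2 also form a cluster, on chromosome 18 between 30990008 and 31549008. None of them had that trio as its lowest tumors, beside 1.72% of all tested genes, a share too small for this to set them apart.

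Since many envelope genes shared an order of tumors, the sequences before their start sites were compared with those of desmosome genes. RefSeq promoters (GRCh38.p14) were matched for 25 of the 36 genes, and the 250 bases before the start were searched on both strands. SPRR2D, SPRR2E and TGM1, which had the shared order, were not among the matched genes, while SPRR2A, which lacked it, was. The matched SPRR genes belong to 1 family at 1 locus, so their matches are not independent. The letters TGANTCA, to which AP-1 factors bind, occurred in 6 of 8 envelope promoters (SPRR1A, SPRR1B, SPRR2A, SPRR3, IVL and SCEL), in 1 of 9 desmosome promoters (PERP) and in 2 of 8 squamous differentiation promoters (SBSN and SERPINB13), beside 6.6% of 27305 promoters. The letters TATAAA occurred in 5 of 8, 0 of 9 and 1 of 8 (SPINK5), beside 11.1%. Of the other motifs searched, GGGGNGGGG occurred in 1 of 8 envelope, 2 of 9 desmosome and 2 of 8 squamous differentiation promoters, beside 23.8%. The core of the interferon-stimulated response element and the ETS motif ACCGGAAG occurred in 0 promoters of the 3 classes, beside 3.07% and 1.89%. RefSeq and GENCODE place the starts of SPRR1A, SERPINB13, SPINK5, PERP and DSP apart, so their matches, or the lack of them, hold for the RefSeq start. A match describes letters only, and its relation to the order of tumors was not tested. Below are 4 promoters of envelope genes, then PERP, the 1 desmosome gene with a match, and DSP, which has none, 5′ to 3′ on the strand of the gene, with TGANTCA and TATAAA in capitals and stretches that GENCODE puts inside PERP and DSP left out.
SPRR1A, chr1:152983831-152984080, plus strand: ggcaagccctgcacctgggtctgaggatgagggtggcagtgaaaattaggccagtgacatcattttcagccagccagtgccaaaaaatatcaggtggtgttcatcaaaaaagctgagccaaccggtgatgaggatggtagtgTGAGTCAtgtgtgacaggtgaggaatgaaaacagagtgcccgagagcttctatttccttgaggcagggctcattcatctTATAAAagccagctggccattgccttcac
SPRR1B, chr1:153030953-153031202, plus strand: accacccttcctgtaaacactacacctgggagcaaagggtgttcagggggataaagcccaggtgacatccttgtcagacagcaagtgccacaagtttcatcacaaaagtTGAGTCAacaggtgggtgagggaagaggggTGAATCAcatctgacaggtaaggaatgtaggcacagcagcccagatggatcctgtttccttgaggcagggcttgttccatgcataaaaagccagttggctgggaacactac
SPRR2A, chr1:153057513-153057762, minus strand: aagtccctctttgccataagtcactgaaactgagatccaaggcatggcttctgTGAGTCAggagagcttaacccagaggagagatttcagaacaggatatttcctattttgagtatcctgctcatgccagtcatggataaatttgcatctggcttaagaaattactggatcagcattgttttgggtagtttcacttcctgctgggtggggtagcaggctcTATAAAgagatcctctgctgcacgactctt
IVL, chr1:152908296-152908545, plus strand: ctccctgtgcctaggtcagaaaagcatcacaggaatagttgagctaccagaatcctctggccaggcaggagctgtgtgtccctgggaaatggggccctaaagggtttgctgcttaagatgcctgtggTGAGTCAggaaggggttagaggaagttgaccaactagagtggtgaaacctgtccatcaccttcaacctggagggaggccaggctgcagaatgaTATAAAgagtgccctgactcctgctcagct
PERP, chr6:138107512-138107669, minus strand: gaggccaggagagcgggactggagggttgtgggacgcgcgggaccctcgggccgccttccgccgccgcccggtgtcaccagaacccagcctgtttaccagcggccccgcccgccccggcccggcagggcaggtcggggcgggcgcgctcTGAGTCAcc
DSP, chr6:7541421-7541574, plus strand: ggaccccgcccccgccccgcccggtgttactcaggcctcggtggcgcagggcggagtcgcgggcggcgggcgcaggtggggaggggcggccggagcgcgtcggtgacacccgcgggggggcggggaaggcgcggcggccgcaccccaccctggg

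In SPRR1A the TGANTCA match began 108 bases before the RefSeq start, in IVL 123 bases, in SPRR2A 197 bases and in PERP 101 bases. In PERP most of the stretch between the match and that start lies inside the gene by GENCODE. SPRR1B held matches at 141 and 111 bases. PERP varied over a 1.45-fold range across the 8 tumors, and TGM3, whose promoter holds TATAAA but no TGANTCA, over a 2.55-fold range at a level near 1 TPM.

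In median spread between tumors, the other squamous differentiation genes fell between the 2 classes. LY6D, a membrane protein of stratified and basal epithelia, was at 2731, 4950.3, 2289 and 4649 TPM in Vehicle 1 to 4 and at 3061, 2514, 2999 and 2976 TPM in NMN 1 to 4. Vehicle 2 and Vehicle 4 were the highest tumors and Vehicle 3 the lowest, with all 4 NMN values inside the Vehicle range and a log2 fold change of -0.27 ± 0.22. CSTB, which encodes cystatin B, a cytosolic cathepsin inhibitor found in most tissues, was at 2050.1, 3528, 1987 and 2563 TPM in the Vehicle tumors and at 3059.5, 4349, 3564 and 2453 TPM in the NMN tumors. Its log2 fold change of 0.41 ± 0.21, with an interval from -0.04 to 0.87, had the smallest p of the 36 genes and did not pass (limma adjusted p = 0.77, exact permutation p = 0.171).

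The cystatins were also set against each other. The ratio of CSTB to CSTA was 1.22, 1.41, 1.35 and 1.12 in Vehicle 1 to 4 and 1.61, 2.01, 2.40 and 1.51 in NMN 1 to 4, without overlap. It was 1 of 8 ratios computed between members after their levels had been seen, and its exact two-sided permutation p of 0.0286, the smallest this design allows, was 0.229 after Benjamini-Hochberg adjustment over the 8, so it did not pass.

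The calmodulin-like genes had log2 fold changes of opposite sign, neither of which passed. CALML5, a calcium-binding protein of differentiating keratinocytes, was at 701, 768, 706 and 689 TPM in Vehicle 1 to 4 and at 907, 751, 1132 and 622 TPM in NMN 1 to 4. CALML3, an epithelial calmodulin-like protein, was at 341, 470.47, 339 and 366 TPM in the Vehicle tumors and at 399, 259, 268 and 329.9 TPM in the NMN tumors. For CALML5 the Vehicle tumors lay within a 1.11-fold range and NMN tumors on both sides of it. The log2 fold changes were 0.22 ± 0.16 and -0.28 ± 0.15 (limma adjusted p = 0.894 and 0.807).

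SBSN, which encodes the secreted epidermal protein suprabasin, followed the envelope genes, at 264, 702, 303 and 980.5 TPM in Vehicle 1 to 4 and at 660.3, 750.4, 937 and 345 TPM in NMN 1 to 4. SPINK5, which encodes LEKTI, an inhibitor of the proteases that shed the stratum corneum, was at 66.05, 236, 49.6 and 167 TPM in the Vehicle tumors and at 97.4, 96.6, 129 and 70.02 TPM in the NMN tumors. Vehicle 1, Vehicle 3 and NMN 4 were the 3 lowest in both. RHCG, an ammonium transporter of squamous epithelia, ranged from 12.6 to 49.2 TPM in Vehicle and from 28.6 to 38.04 TPM in NMN tumors. LYPD3, a GPI-anchored protein of keratinocytes, had means of 356 and 293 TPM and a log2 fold change of -0.25 ± 0.18.

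The clade B serpins SERPINB3 and SERPINB4, squamous cell carcinoma antigens, and SERPINB13, a cathepsin inhibitor, neighbor each other on chromosome 18 (63586989 to 63661963). SERPINB3 was at 87.1, 130.2, 88.2 and 215 TPM in Vehicle 1 to 4 and at 113, 148, 123 and 61.6 TPM in NMN 1 to 4. SERPINB4 stood at 0.217 to 0.387 times SERPINB3 in the 8 tumors, and 23.3% of the 50-base stretches of SERPINB3 also occur in SERPINB4, so reads can be split between them. SERPINB13 had means of 5.55 TPM in Vehicle and 5.86 TPM in NMN tumors. The median log2 fold change of the 11 squamous differentiation genes was -0.15, with 5 higher and 6 lower, and it was 0.15 without Vehicle 2, 0.08 without Vehicle 4 and 0.07 without NMN 4.

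Of 56 further genes of desmosomes and the envelope, 51 were in the table and 36 were tested. None passed by limma (smallest adjusted p = 0.5), 24 had the higher and 12 the lower mean in NMN tumors, and the median log2 fold change was 0.17. At an unadjusted p under 0.05 stood 8 with the higher mean, beside 4.79% of all tested genes, and 1 with the lower, beside 2.15%. DSC1, the desmocollin of upper epidermis, was at 4.12, 1.85, 4.88 and 3.71 TPM in Vehicle 1 to 4 and at 13.2, 6.10, 4.83 and 6.29 TPM in NMN 1 to 4, a log2 fold change of 0.85 ± 0.29. The desmosome-degrading kallikrein gene KLK5 and CASP14, a caspase of cornification, had log2 fold changes of 0.61 ± 0.21 and 0.55 ± 0.22. KRTDAP, a secreted protein of differentiating keratinocytes, was the most abundant, at 4963 TPM in Vehicle and 7622 TPM in NMN tumors. Vehicle 1, Vehicle 3 and NMN 4 were the lowest tumors in 14 of the 36, beside 1.72% of all tested genes. Among these, CDSN, which encodes corneodesmosin, was at 31.8, 168, 58.7 and 326 TPM in Vehicle 1 to 4. In NMN 1 to 4 it was at 186, 160.2, 205 and 46.95 TPM. Loricrin (LORICRIN), the main envelope protein of epidermis, reached only 6.37 to 22 TPM, below SPRR1B in every tumor. Of 10 markers of suprabasal epidermis, which share CDSN, LORICRIN, CASP14, KRTDAP, DSC1 and FLG with that list, all 10 had the higher mean in NMN tumors and none passed the adjusted threshold. The 4 at an unadjusted p under 0.05 (DSC1, CASP14, KRTDAP and FLG) are all counted in that list already. Summed over all 10 markers, the level was 10496, 11066, 10754 and 11655 TPM in Vehicle 1 to 4. In NMN 1 to 4 that sum was 16988, 17739, 13083 and 10929 TPM. CDSN and LORICRIN were chosen after their values were seen, as were OVOL1, TP63, CDH1, CYP4F22, KRT19, KRT7 and KRT17 below.

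Of 25 transcription factor genes tied to squamous differentiation, all tested, 16 were higher on average with NMN and 9 lower. The median log2 fold change was 0.08, and none passed (limma, smallest adjusted p = 0.426). ELF3, an epithelial ETS factor, was at 113, 137, 149.95 and 64 TPM in Vehicle 1 to 4 and at 138, 238, 310.4 and 177 TPM in NMN 1 to 4, a log2 fold change of 0.90 ± 0.28. The grainyhead factor gene GRHL1 and the nuclear receptor gene RXRA had log2 fold changes of 0.32 ± 0.12 and -0.29 ± 0.11. Vehicle 1, Vehicle 3 and NMN 4 were the lowest tumors in 4 of the 25, beside 1.72% of all tested genes. These 4, named after their values were seen, were GRHL3, a regulator of the epidermal barrier, OVOL1, PRDM1 and HOPX. OVOL1 stood at 14.3, 29.3, 16.9 and 43 TPM in Vehicle 1 to 4 and at 23.8, 23.4, 20.7 and 17.7 TPM in NMN 1 to 4. TP63, the master factor of stratified epithelia, was at 67.6, 88.6, 90 and 125 TPM and at 71.8, 60.8, 54.8 and 93.85 TPM.

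Among 13 tested genes of adherens junctions, the other cadherin-based junction, the range over 8 tumors reached 2-fold in 2. This stood beside 26.6% of all tested genes, and 13.1% of those with a mean of at least 10 TPM. The trio was lowest in 0 of the 13, beside 1.72% of all tested genes, a share too small for that 0 to set the list apart. CDH1, which encodes E-cadherin, was at 177 TPM in Vehicle and 164 TPM in NMN tumors. AFDN, a scaffold of these junctions, lay higher in all 4 NMN tumors than in any Vehicle tumor, as did 2.08% of all tested genes. It was the 1 gene of the 13 without overlap, with a log2 fold change of 0.38 ± 0.12 (limma adjusted p = 0.435). Of 18 genes of the epidermal lipid barrier, 9 had the higher and 9 the lower mean. Beside the same 1.72%, the trio was lowest in 5 of them: the lipoxygenase genes ALOX12B and ALOXE3, ELOVL4, CYP4F22 and SDR9C7. PNPLA1, an enzyme of skin ceramide synthesis with the smallest p of this list, was at 11.1, 13.7, 11.8 and 13.7 TPM in Vehicle 1 to 4 and at 10.1, 9.32, 8.04 and 10.3 TPM in NMN 1 to 4. It lay lower in all 4 NMN tumors than in any Vehicle tumor, as did 0.966% of all tested genes. It was the 1 gene of the 18 without overlap, with a log2 fold change of -0.38 ± 0.14 (limma adjusted p = 0.553). CYP4F22, a fatty acid hydroxylase needed for skin ceramides, was at 8.16, 18.03, 14 and 28.2 TPM in Vehicle 1 to 4 and at 27.4, 24.1, 26.1 and 10.1 TPM in NMN 1 to 4.

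The simple-epithelial keratin genes KRT19 and KRT8 took another course across the same tumors. KRT19 was at 854, 299, 884 and 288 TPM in Vehicle 1 to 4 and at 664, 586, 1005 and 959.8 TPM in NMN 1 to 4, so that its lowest tumors were Vehicle 2 and Vehicle 4, the Vehicle tumors with the higher levels of SPRR1A and SPRR1B. KRT8 was at 542, 315, 537 and 265 TPM in the Vehicle tumors and at 879, 707, 909 and 841 TPM in the NMN tumors, and its log2 fold change of 1.07 ± 0.21 did not pass (limma adjusted p = 0.221). KRT18 was at 576, 516, 562 and 376 TPM in the Vehicle tumors and at 721, 574, 645 and 593 TPM in the NMN tumors. KRT7 was at 573, 701, 809 and 477 TPM and at 715, 739, 1008 and 806 TPM, so that Vehicle 2 exceeded Vehicle 1. These keratins come from a list of 12 breast epithelial genes, 11 of them tested, in which other keratin genes went otherwise. KRT17 had Vehicle 1, Vehicle 3 and NMN 4 as its 3 lowest tumors, the 1 tested gene of that list to do so. KRT5 and KRT14 were highest in Vehicle 4, at 6488 and 6953 TPM, and lowest in Vehicle 1, Vehicle 3 and NMN 2.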

How the data were processed

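Gene-level TPM (transcripts per 1000000) of 8 tumors were used as deposited by the authors. Per the submitters' processing notes, the tools were RSEM 1.2.8, HISAT2 2.1.0 and Bowtie2 2.2.5 (roles not stated), with the build GRCh38.p13. Per the labels' protocols, total RNA of tumor tissue was sequenced. TPM keeps no sequencing depth, and no counts were recovered, so depth and counting error are unknown.

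Genes with at least 1 TPM in at least 4 of 8 libraries were tested with limma 3.58.1 (R 4.3.3, with a variance trend) on log2(TPM + 1), 4 NMN against 4 Vehicle tumors, two-sided, with Benjamini-Hochberg adjustment over all 13358 tested genes. Fold changes are on that scale, which understates those of low genes. Single genes also had an exact two-sided permutation test. The fit was tested on simulated data. Highest-to-lowest ratios used TPM. Named in full were, per class, the 3 genes with the highest mean and the 3 with the smallest p, and of other lists up to 3 with the smallest p and 2 with the highest mean. Also given tumor by tumor, outside that rule and with their values known, were SPRR2A, SPRR2D, SPRR2E, SPRR3, IVL, SBSN, SPINK5 and SERPINB3. Members and lists were chosen with earlier results of these data known. Alternatives covered pseudocounts 0.1 and 5, filters, scaling, variance model, library weights, a replicate block, class membership and each tumor left out. Gene positions came from GENCODE 29, promoters from RefSeq.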

Additional observations from a re-analysis of the deposited data

Results flagged for a closer look

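In 4 of 72 groups of 4 tumors, 36 genes in each of 2 treatment groups, 1 tumor lay far from the other 3 on the log2(TPM + 1) scale, with a gap to its neighbor above Dixon's 95% critical share of the group's whole range. Chance gives about 1 in 20. PKP1, a plakophilin of stratified epithelia, was at 564.82 TPM in Vehicle 4, above the other Vehicle tumors. EVPL, which encodes envoplakin, was at 44.52 TPM in Vehicle 4, where the other 3 lay between 40.8 and 41.2 TPM, so the gap is small in TPM. TGM1, the epidermal transglutaminase, was at 14.12 TPM in NMN 4, below the 36.2 to 41.5 TPM of the other NMN tumors. LY6D was at 2513.59 TPM in NMN 2, below the 2976 to 3061 TPM of the others.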

How the results depend on the processing

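Under every alternative run, 0 of the 36 genes passed the adjusted threshold, and the smallest adjusted p was 0.28. Of 647 values of single genes under alternatives, 588 kept their direction and 59 changed sign. Over all tested genes the number past the threshold, 0 with the settings reported, was 54 with library weights, and leaving out 1 tumor gave 0 to 53 (53 without NMN 4, 1 without Vehicle 3). With the replicate number as a replicate block it was 2. Same-numbered tumors did not deviate together (correlations from -0.12 to 0.026, and 0 of 8 tumors correlated best with their own number), so the numbers were not taken as pairs. At an unadjusted p under 0.05 the numbers higher and lower were 640 and 287, and 684 and 442 with median-of-ratios scaling or 640 and 514 with quantile normalization. Library weights turned the log2 fold change to 0.076 for DSG1, 0.13 for JUP, 0.070 for PKP1, 0.022 for PKP3, 0.026 for PERP, 0.19 for SPRR2A, 0.20 for SPRR3, 0.054 for PPL, 0.056 for EVPL, 0.12 for SPINK5, 0.016 for SERPINB3. DSC3 turned to -0.010 with median-of-ratios scaling and to -0.0032 with quantile normalization. Leaving out 1 tumor turned the sign of these log2 fold changes, with the lowest and highest value of each: DSG1 -0.24 to 0.088, DSG3 -0.28 to 0.062, DSC3 -0.11 to 0.12, JUP -0.10 to 0.072, PKP1 -0.15 to 0.13, PERP -0.14 to 0.040, SPRR1A -0.17 to 0.55, SPRR1B -0.12 to 0.49, SPRR2A -0.65 to 0.16, SPRR2D -0.054 to 0.85, SPRR2E -0.28 to 0.59, SPRR3 -0.46 to 0.12, IVL -0.20 to 0.34, SCEL -0.25 to 0.10, PPL -0.19 to 0.048, EVPL -0.11 to 0.043, CNFN -0.071 to 0.36, SPINK5 -0.51 to 0.23, SERPINB3 -0.35 to 0.084, SERPINB4 -0.35 to 0.059, SERPINB13 -0.063 to 0.23, RHCG -0.17 to 0.45. The class medians ran from -0.13 to 0.062 for desmosome, -0.19 to 0.25 for envelope and -0.24 to 0.15 for squamous differentiation genes when 1 tumor was left out. The number of genes with a 2-fold range was then 1 to 3, 10 to 11 and 7 to 8. Chosen after seeing the data, median-of-ratios scaling made Vehicle 1, Vehicle 3 and NMN 4 the 3 lowest tumors in 2 desmosome and 8 squamous differentiation genes, from 0 and 5. The cause of these shifts was not tested. TPM keeps no depth, so counting error could not be given. TGM3 is left out by the filter at 5 TPM.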
